A study of Mus musculus with 48 samples.

Results

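Active enhancer-like regions of the neurons of control mice were described here with 4 histone marks and with the RNA of the genes beside them. An enhancer is a stretch of DNA, often far from any gene start, that raises transcription of a gene on the same chromosome. In neurons, active enhancers usually carry acetylation of histone H3 at lysine 27 (H3K27ac) together with monomethylation at lysine 4 (H3K4me1), and little of the trimethylation at lysine 4 (H3K4me3) that marks gene starts. Acetylation at lysine 9 (H3K9ac) is strongest at gene starts and is also found at many enhancers. Setd1b encodes a catalytic subunit of a COMPASS complex, which methylates lysine 4 of histone H3.

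The series compared conditional knockout mice of Setd1b (Setd1b cKO) with controls, in hippocampal CA neurons of adult C57BL/6J mice aged 4 to 6 months. Chromatin came from fixed, sorted neuronal nuclei. H3K27ac was profiled in 3 libraries labelled Control and 4 labelled cKO, H3K4me1 and H3K4me3 in 4 of each, and H3K9ac in 4 labelled Control and 3 labelled cKO. Neuron RNA comprised 3 libraries of each label. The alignment file named in the header of the H3K27ac Control 1 list carries the number 2, so which replicate that list holds is in doubt, though not its label. The Cre driver and the deleted exons are not given in the sources used here. Nothing in the labels says which libraries share an animal, so p-values measure the spread between these libraries only.

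Overlapping H3K27ac peaks of the 3 Control libraries merged into 209814 regions on chromosomes 1 to 19, and 79964 of them had a peak in all 3. Of these, 68719 were covered by H3K27ac over less than 2000 bp on average. An H3K4me1 peak in all 4 Control libraries was found at 59297 of those. With no H3K4me3 peak in any Control library, 35394 remained, 44.3% of the 79964, and these are the enhancer-like regions. The values that chose them are H3K27ac, H3K4me1 and H3K4me3 of the Control libraries, so for these 3 marks the comparison with libraries labelled cKO is a description without a test. H3K9ac and RNA were not used to choose them. One Control input library served the peak calling of every Control library of all 4 marks, so H3K9ac also shares that input with the choice.

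ChIP libraries held 24.4 M to 41.6 M tags and RNA libraries 55.7 M to 69.1 M counts. Whole-gene counts of Setd1b were not lower by the test: 65.4, 49.7 and 47.6 CPM (counts scaled to library size) in the libraries labelled Control and 59.9, 62.6 and 72.1 CPM in those labelled cKO (edgeR adjusted p = 0.361). Whole-gene counts do not resolve deleted exons, so they cannot check the labels, and genotypes are given throughout as labelled. Defining markers of excitatory neurons had a median of 212 CPM in Control, against 36.3 CPM for interneuron, 5.25 for astrocyte, 1.29 for microglial and 0.457 for endothelial and mural markers. Dentate granule cell markers had a median of 41.0 CPM, below the 173 CPM of CA1 markers. Enhancer activity itself was not measured.

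The regions were short and lay away from gene starts. Their merged length had a median of 830 bp, with 10% below 430 bp and 10% above 1737 bp, and H3K27ac covered a median of 574 bp. The H3K4me1 peaks that overlapped them were longer, with a median of 2962 bp. A median of 9045 bp separated them from the nearest H3K4me3 peak. On the chromosomes with annotated starts (all but 18), their centres lay a median of 32558 bp from the nearest RefSeq start, and 1.64% lay within 1 kb of one. Of the 34050 H3K27ac regions that overlapped H3K4me3, 33.1% lay within 1 kb of a start. The centre of 71.8% of the enhancer-like regions fell inside a protein-coding gene. In the 3 Control H3K27ac lists their best peaks ranked at medians of 67325, 67396 and 61556 by -log10 p, while regions with H3K4me3 ranked at medians of 20540, 22108 and 20778. The label of active enhancer rests on marks and position only.

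A few annotated gene starts did fall inside these regions, and their sequences show what kind of start this was. RefSeq (GRCm38.p6) start windows, 250 bases before to 50 after a start, lay wholly inside a region in 251 cases from 234 genes. They were poor in CpG dinucleotides: the median was 4 CpG per 300-base window, against 21 in the 10133 windows inside H3K27ac regions with H3K4me3 and 7 in all 31396 windows. The median GC content was 51.7%, 61.3% and 53.0% in the same order. The genes concerned were mostly weakly expressed, with a median of 0.383 CPM over the 118 matched to RNA, against 30.1 CPM for genes whose starts lay in regions with H3K4me3.

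**Figure D1:**
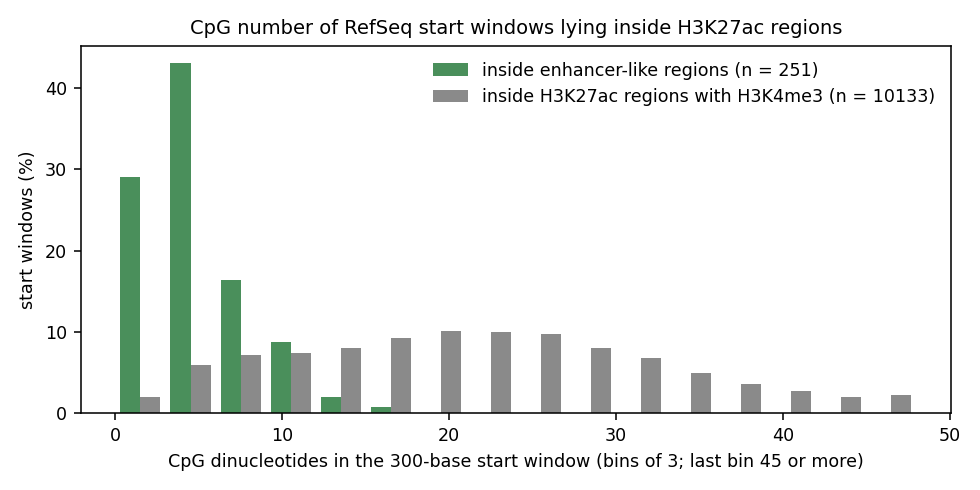
CpG dinucleotides per 300-base RefSeq start window (x axis, bins of 3) against the percentage of windows (y axis), for windows inside enhancer-like regions (n = 251) and inside H3K27ac regions with H3K4me3 (n = 10133). The largest bin inside enhancer-like regions was 3 to 5 CpG, with 43.0% of windows, and none of these windows held 18 or more.

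Start windows of 4 genes are shown because their RNA, their membership of the plasticity gene list or their H3K9ac bears on the results below, and a further Bdnf start is shown for contrast. Capitals mark every CpG. Lct, which encodes lactase and is used as a dentate granule cell marker, has 1 start window in the table, on the minus strand at chr1:128328269-128328568, with 1 CpG. Bdnf, a neurotrophin released by active neurons, has 7 start windows, of which 5 lay in regions with H3K4me3 and 1, at chr2:109722671-109722970 on the plus strand, lay in an enhancer-like region with 8 CpG. The start shown for contrast, at chr2:109694159-109694458 on the plus strand, held 13 CpG and lay in a region with H3K4me3. It is the richest in CpG of the 5 Bdnf windows in such regions, which held 11, 7, 12, 10 and 13 CpG. The 8 CpG of the window in the enhancer-like region lie within that range. Gm52296, an unnamed gene model, has its window on the minus strand at chr17:86243257-86243556, with 14 CpG. F7, the gene of coagulation factor VII, has its window on the plus strand at chr8:13025784-13026083, with 5 CpG; it was chosen after its values were seen. They read, 5′ to 3′:
Lct: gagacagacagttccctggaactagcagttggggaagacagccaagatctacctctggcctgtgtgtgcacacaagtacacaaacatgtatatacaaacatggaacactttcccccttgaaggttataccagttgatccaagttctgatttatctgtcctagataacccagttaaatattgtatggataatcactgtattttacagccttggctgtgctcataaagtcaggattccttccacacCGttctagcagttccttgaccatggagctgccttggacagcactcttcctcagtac
Bdnf, inside an enhancer-like region: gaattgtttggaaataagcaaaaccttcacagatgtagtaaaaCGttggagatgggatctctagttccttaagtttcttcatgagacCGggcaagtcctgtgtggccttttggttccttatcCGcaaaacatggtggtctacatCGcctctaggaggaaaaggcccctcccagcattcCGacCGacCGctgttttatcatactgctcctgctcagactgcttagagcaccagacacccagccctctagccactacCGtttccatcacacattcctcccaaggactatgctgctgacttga
Bdnf, inside a region with H3K4me3: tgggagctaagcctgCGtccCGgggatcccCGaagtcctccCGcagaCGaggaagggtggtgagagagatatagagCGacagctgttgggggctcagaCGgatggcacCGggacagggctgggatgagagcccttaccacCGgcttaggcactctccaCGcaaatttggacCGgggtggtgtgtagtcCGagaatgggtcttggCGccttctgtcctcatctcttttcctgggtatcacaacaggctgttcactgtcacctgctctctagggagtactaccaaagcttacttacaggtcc
Gm52296: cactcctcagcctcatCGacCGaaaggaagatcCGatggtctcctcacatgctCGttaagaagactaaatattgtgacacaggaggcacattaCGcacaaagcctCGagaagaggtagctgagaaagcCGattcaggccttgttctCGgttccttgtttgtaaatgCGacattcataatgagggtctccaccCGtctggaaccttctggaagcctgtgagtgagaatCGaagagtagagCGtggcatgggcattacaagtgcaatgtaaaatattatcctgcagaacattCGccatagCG
F7: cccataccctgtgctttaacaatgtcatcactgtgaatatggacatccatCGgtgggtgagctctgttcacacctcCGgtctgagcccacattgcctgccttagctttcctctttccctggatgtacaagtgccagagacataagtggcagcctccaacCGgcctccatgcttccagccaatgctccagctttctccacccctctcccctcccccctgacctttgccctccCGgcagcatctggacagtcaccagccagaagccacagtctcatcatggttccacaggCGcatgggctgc

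Short sequence motifs were searched on both strands of the 251 windows as a description. TGANTCA, the AP-1 sequence recognised by Fos and Jun dimers, was present in 12.7% of windows inside enhancer-like regions, in 4.43% of those inside regions with H3K4me3 and in 7.84% of all windows. The E-box CAGATG, recognised by neuronal basic helix-loop-helix factors, was present in 26.7%, 12.1% and 17.2%. GGGCGG, the KLF and SP sequence that contains a CpG, was present in 13.9%, 61.1% and 36.0%. TGACGTCA, the cyclic AMP response element, was present in 0.797%, 3.31% and 1.83%. TAATTA, a homeobox sequence, was present in 8.37%, 2.25% and 5.27%. The windows differ in CpG and GC content, which moves with the share of GC-rich and AT-rich motifs, and the part of base composition in these shares was not tested. The Bdnf window inside the enhancer-like region held CAGATG, and the one shown from a region with H3K4me3 held CAGCTG.

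Marks in the libraries labelled cKO are given first for the 3 that chose the regions. H3K4me1 was retained at 98.8%, 99.0%, 97.8% and 98.6% of the regions in the libraries labelled cKO 1 to 4, against 100% in Control by the rule. H3K27ac was present at 86.8%, 91.7%, 87.9% and 89.996% in the same order, and 26970 regions (76.2%) had it in all 4 while 714 (2.02%) had it in none. H3K27ac covered 699 ± 55.0 bp per region in Control (SD, n = 3) and 649 ± 43.2 bp in the libraries labelled cKO (SD, n = 4). A choice made in Control favours Control in these marks, and the same was seen from the other side. When the same rule was applied to the libraries labelled cKO, 29772 regions were found, and at those it was the Control libraries that lacked peaks: 73.5% had H3K27ac in all 3 Control libraries and 2.22% had it in none. Of the enhancer-like regions, 18614 (52.6%) overlapped one of these, and 59.6% of those chosen in cKO overlapped an enhancer-like region.

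H3K4me3, absent from Control by the rule, was found at 1.62%, 5.12%, 2.05% and 3.45% of the regions in the libraries labelled cKO 1 to 4. It was seen in at least 1 of the 4 at 3087 regions (8.72%) and in all 4 at 56. Regions chosen in cKO had H3K4me3 in at least 1 Control library in 6.98% of cases, and in all 4 in 303 cases.

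**Figure D2:**
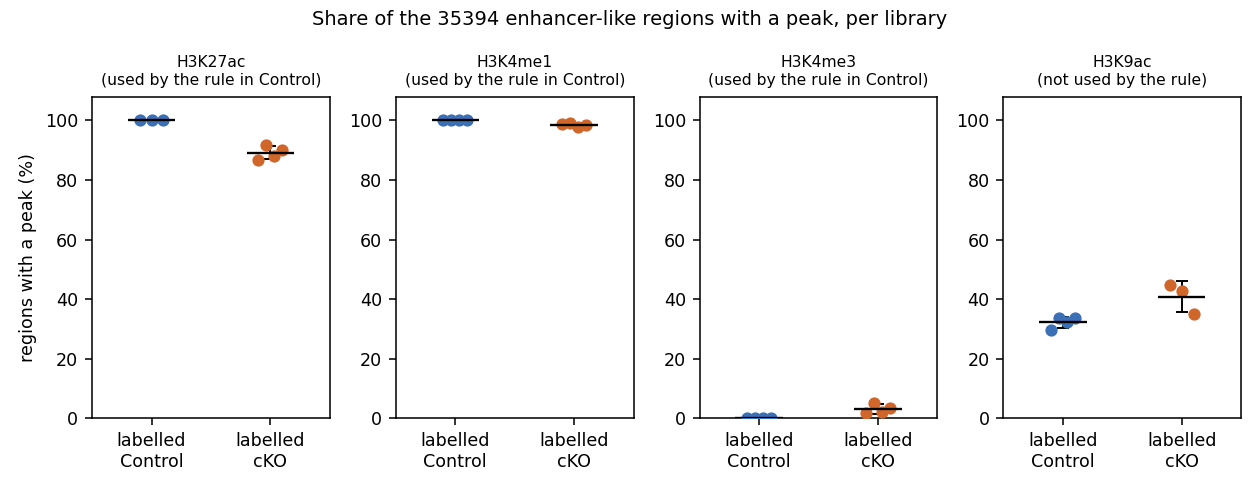
Percentage of the 35394 enhancer-like regions with a peak of each mark (y axis) in each library (points), by label, with the mean (bar) and SD (whisker). Control values of H3K27ac, H3K4me1 and H3K4me3 are fixed by the rule, and the 3 H3K9ac libraries labelled cKO, at 35.0% to 44.7%, all lie above the 4 Control libraries, at 29.6% to 33.6%.

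H3K9ac was more frequent at these regions in the libraries labelled cKO, a shift also seen over all H3K27ac regions, of which these are a part. A peak was present at 44.7%, 42.9% and 35.0% of the enhancer-like regions in the libraries labelled cKO 1, 2 and 4. The shares were 29.6%, 33.6%, 32.4% and 33.6% in those labelled Control 1 to 4. No library labelled cKO overlapped the range of the Control libraries, and the means were 40.9% ± 5.15 (SD, n = 3) and 32.3% ± 1.85 (SD, n = 4). The covered length averaged 170 ± 29.8 bp and 128 ± 13.7 bp per region, with the lowest library labelled cKO at 136 bp and the highest Control library at 138 bp, so the lengths overlapped. At regions chosen by the same rule in cKO the shares were 37.9% and 29.7%, the same direction. Over all H3K27ac regions with a peak in every Control H3K27ac library, the shares averaged 61.4% in libraries labelled cKO and 55.9% in Control. The ranges there were 57.7% to 63.9% and 54.0% to 57.0%, which do not overlap. Stretch regions, covered over 2000 bp or more, had H3K9ac in 85.4% and 75.6%, and regions with H3K4me3 in 90.2% and 87.9% with overlapping ranges; whether the difference differs between these classes was not tested.

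The size of the H3K9ac difference moved with how peaks were counted. The H3K9ac lists held 107536 to 138833 peaks in libraries labelled cKO and 108217 to 117343 in Control. With the same number of strongest peaks taken from each library the ranges were 35.0% to 36.5% and 29.4% to 31.7%, which still do not overlap. With a peak over at least 50% of a region the means were 12.1% and 8.58% and the ranges overlapped. On the sequencing lane of 1 library of each label the shares were 44.7% and 29.6%, and on the other lane, with 2 libraries labelled cKO and 3 Control, 38.9% and 33.2%.

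Within the set, an H3K9ac peak was more frequent where H3K27ac covered a longer stretch and where H3K4me3 was nearer. In Control it was present at 20.4% of the 14577 regions with under 500 bp of H3K27ac and at 59.1% of the 2237 with 1500 bp or more. The libraries labelled cKO averaged 26.6% and 72.0% in these classes. Any overlap counted as a peak, so a longer region had more room for a peak to fall in. The part of region length in the rise with H3K27ac length was not tested. With a gap of under 5 kb to the nearest H3K4me3 peak the averages were 37.8% in Control and 45.7% in libraries labelled cKO, and at 100 kb or more they were 9.57% and 16.4%. The average was higher in libraries labelled cKO in each of these classes, by 6.25 to 12.99 percentage points by H3K27ac length and by 6.86 to 9.39 points by gap.

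**Figure D3:**
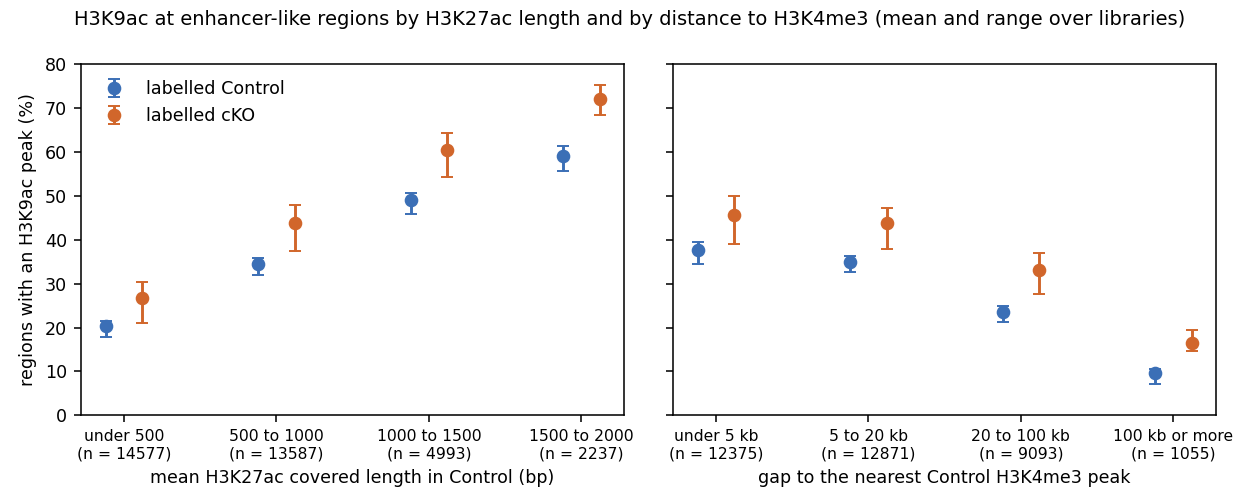
Percentage of enhancer-like regions with an H3K9ac peak (y axis) by mean H3K27ac covered length in Control (left) and by gap to the nearest Control H3K4me3 peak (right). Points are means over the 4 libraries labelled Control or the 3 labelled cKO and whiskers the range, and the Control mean climbs from 20.4% to 59.1% with H3K27ac length and drops from 37.8% to 9.57% with the gap.

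Single regions were tested with limma on log2 of the covered H3K9ac length plus 100 bp, among the regions with a peak in at least 3 of the 7 libraries. Of the 35394 enhancer-like regions, 14851 passed this filter, 12090 had no H3K9ac peak in any library and 8453 had one in 1 or 2. At an adjusted p under 0.05, 392 of the 14851 (2.64%) were higher in libraries labelled cKO and 59 (0.397%) were lower. Of all 50484 H3K27ac regions tested, 1.41% and 0.753% were called. The shares were 2.93% and 0.0385% at stretch regions, and 0.671% and 0.977% at regions with H3K4me3. At regions without H3K4me3 that had H3K4me1 in fewer than 4 Control libraries they were 2.32% and 0.773%. A higher share above that of all regions is thus not particular to the enhancer-like set. These counts support nothing by themselves. Among the 392 higher calls, 349 had no peak in any Control library, and 51 of the 59 lower calls had none in any library labelled cKO. These regions passed the filter through the group that has the peak. With no filter, all 35394 enhancer-like regions entered the fit and 323 were higher and 48 lower, where 0.732% and 0.54% of all 79964 regions were called. With a peak required in all 7 libraries the counts were 13 and 2 of 4235, against 102 and 211 of 32320 over all regions. With equal numbers of strongest peaks they were 306 and 93 of 13607, against 576 and 463 of 48679 over all regions. Centring on each library's median moved the median of all regions from 0.05 to -0.09. The counts were then 357 and 73 of 14851, against 597 and 443 of 50484. Without the library labelled cKO 1, 2 or 4 the higher count was 6, 9 and 11, against 18, 19 and 28 over all regions. This is because a peak in the 2 that remain no longer passes the filter of 3 libraries. With the filter at 2, an alternative chosen after seeing the data, the higher count was 592, 683 and 972, with 106, 118 and 79 lower. Over all regions that filter gave 917, 1050 and 1502 higher and 430, 457 and 389 lower. Without Control 4 the higher count was 527, against 998 over all regions. Without Control 1, 2 or 4 the lower count was 100, 91 and 83, against 372, 310 and 300.

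At each of the 5 higher regions with the smallest p, a peak was present in every library labelled cKO and in no Control library. Adjusted p-values for regions with a peak in 1 label only are given here from the fit with no filter, which tests every region. That fit includes regions at 0 bp in every library, and a label at 0 bp throughout has no spread. At the Gpm6a region its SE was 0.0151, against 0.0476 with the filter, where limma's adjusted p was 6.64e-05. The size of these p-values is therefore not read as strength of evidence. Inside Gpm6a, which encodes a membrane glycoprotein of neurites, the region at chr8:55012339-55012878 had 540, 516 and 540 bp of H3K9ac in the libraries labelled cKO and 0 bp in each of the 4 labelled Control (log2 difference 2.66, adjusted p = 3.95e-07). Inside Prkca, a protein kinase C gene, the region at chr11:108148441-108149689 had 568, 615 and 663 bp and 0 bp in each Control library (adjusted p = 2.69e-05). Inside Slit1, an axon guidance ligand gene, the region at chr19:41718520-41720124 had 495, 442 and 442 bp and again 0 bp in Control. The other two lay inside Rin2, at chr2:145884158-145885603, and between genes at chr2:117380561-117382783. H3K27ac was present in every library of both labels at all 5. At the Gpm6a region it covered 202, 493 and 507 bp in Control and 540 bp, the whole region, in each library labelled cKO, and at the Prkca region 819, 1052 and 1082 bp and 1084, 1249, 1211 and 939 bp.

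The 5 lower regions showed the opposite. Inside Ncam1, a neural cell adhesion gene, the region at chr9:49695555-49696143 had 412, 425, 473 and 398 bp of H3K9ac in Control, while the 3 libraries labelled cKO were at 0 bp (log2 difference -2.40, adjusted p = 6.22e-05). Inside Rbfox2, which encodes a splicing factor, the region at chr15:77204996-77205585 had 209, 195, 216 and 180 bp in Control and 0 bp in the libraries labelled cKO (adjusted p = 0.000161). Inside Tmem266, a gene for a voltage-sensing membrane protein, the region at chr9:55408578-55409374 had 253, 195, 250 and 235 bp and 0 bp. That region also had H3K27ac of 429, 193 and 593 bp in Control and none in any library labelled cKO. At the Ncam1 region H3K27ac was missing from 1 of the 4 libraries labelled cKO, and at the Rbfox2 region from 2. The remaining regions lay on chromosome 18 and at chr19:53468868-53470060, 4668 bp from the start of Mirt1, a long noncoding RNA gene whose RNA also fell.

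**Figure D4:**
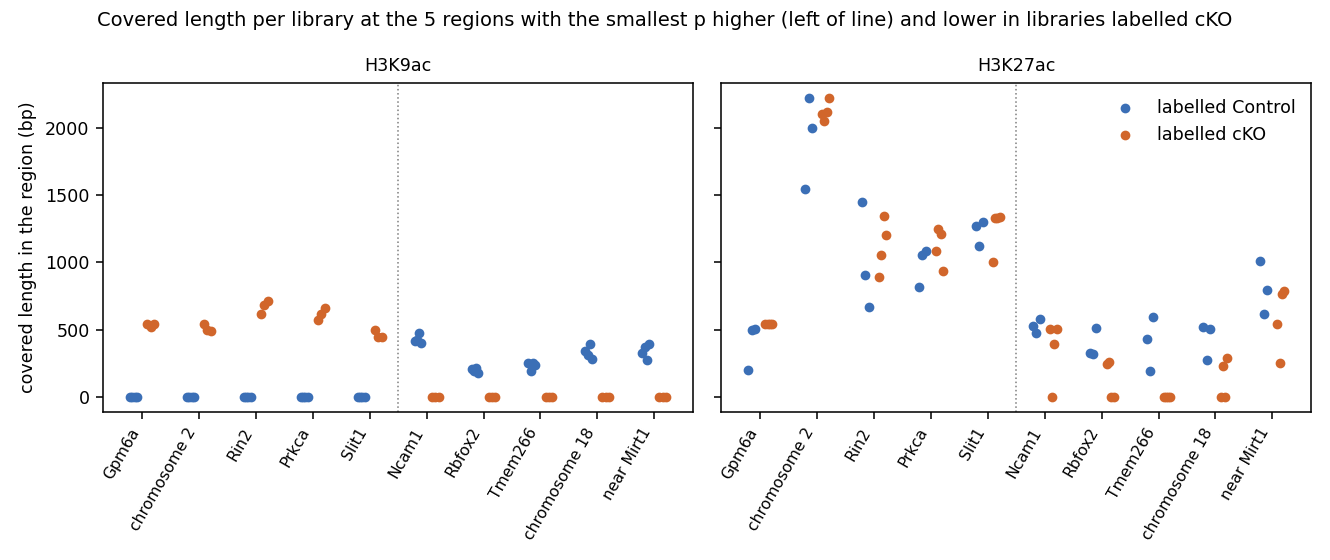
Covered length in bp (y axis) of H3K9ac (left) and H3K27ac (right) at the 5 enhancer-like regions with the smallest p among higher H3K9ac calls, left of the dotted line, and the 5 among lower calls, named by the gene they lie in or near. Points are libraries, and H3K9ac is at 0 bp in all libraries of one label at each of the 10 regions, while H3K27ac mostly overlaps between labels.

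H3K27ac length differed between higher and lower H3K9ac calls. Of the 392 higher regions, 362 (92.3%) had H3K27ac in all 4 libraries labelled cKO and 262 (66.8%) had a longer mean H3K27ac length there than in Control. Of the 59 lower regions, 23 (39.0%) had it in all 4 and 4 (6.78%) were longer. Over all 14851 tested the shares were 81.6% and 41.1%. This is a description, since Control H3K27ac chose the regions and the labels do not say whether both marks came from the same nuclei.

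Of 919 miRNA hairpins of the RefSeq table on the annotated chromosomes, 33 lay wholly inside 30 of the regions, among them Mir181a-1, Mir488, Mir153 and the neighbours Mir192 and Mir194-2. Those of Mir7221 and Mir7090 lay in regions whose H3K9ac was called higher. At the Mir7221 region, chr2:92591987-92593513, H3K9ac covered 237, 373 and 191 bp in libraries labelled cKO and 0 bp in Control (log2 difference 1.85, adjusted p = 0.0108 with no filter). At the Mir7090 region, chr9:120955054-120956125, it covered 479, 156 and 257 bp and 0 bp, a call that passed with the filter (log2 difference 1.91, adjusted p = 0.0257) and not without it (adjusted p = 0.0542). Their mature products are printed because these are the only hairpins of the table inside regions with an H3K9ac call; capitals mark the seed, bases 2 to 8, and no seed is shared. miRNA levels were not measured.
miR-7221-5p: cGUCUCUUggucacagguggg
miR-7221-3p: uGACUGUGggcuggggacugg
miR-7090-5p: uCUCAGAGuugggacaccaugag
miR-7090-3p: uUUGAUGUcugacuuugcag

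The regions with the best mean H3K27ac rank in Control were a close pair inside Tusc3, a gene for an oligosaccharyltransferase subunit, at chr8:39152710-39153597 and chr8:39155153-39156113. At the first, H3K9ac covered 542 to 575 bp in the 4 Control libraries and 581, 597 and 581 bp in those labelled cKO (limma adjusted p = 0.692), and H3K27ac 719 to 881 bp and 810 to 872 bp. The third by rank, at chr1:164606171-164608297, lay between genes and had H3K27ac of 818, 2036 and 2122 bp in Control and 1715, 1972, 1763 and 2042 bp in libraries labelled cKO. These strong regions did not differ past the test in H3K9ac.

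At some regions a mark was called in all libraries of one label and in none of the other; this is a description of marks the rule used. H3K4me3 appeared in all 4 libraries labelled cKO inside Reep1, which encodes a protein that shapes the endoplasmic reticulum, at chr6:71744164-71746127, with 175, 241, 173 and 235 bp. The same region had H3K9ac of 422, 508 and 274 bp in libraries labelled cKO and 0 bp in Control (log2 difference 2.30, adjusted p = 0.0047 with no filter). H3K4me3 of 187, 177, 173 and 212 bp appeared inside Cacna2d1, an auxiliary calcium channel subunit gene, at chr5:16110831-16112795, where no library had H3K9ac. H3K27ac was lost from all 4 libraries labelled cKO inside Notch1, a receptor gene, at chr2:26499805-26501559, where Control had 1454, 613 and 1516 bp. It was likewise absent inside Oxr1, a gene of oxidation resistance, at chr15:41751250-41752006, against 721, 583 and 660 bp in Control. There H3K9ac covered 153, 549, 224 and 345 bp in Control and 0 bp in the libraries labelled cKO, which passed with the filter (log2 difference -1.97, adjusted p = 0.0458) and not without it (adjusted p = 0.0917), and H3K4me1 remained in 1 of 4.

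Just inside the length limit were one in Grin2a, an NMDA receptor subunit gene, at chr16:9707309-9709774, with a mean H3K27ac length of 1999.3 bp, and one in Pard3 with 1998.7 bp. Just outside were one in Trpc4ap exactly at the limit and one in Ptpru with 2001.0 bp.

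Genes beside the regions were followed in neuron RNA. The nearest RefSeq start assigned the regions to 8881 genes, of which 6175 matched an RNA identifier and 5042 were tested. Because 18.3% of protein-coding genes have no entry in the table of starts, some regions were assigned to a more distant gene, such as the pair inside Tusc3. With edgeR, 141 of the 5042 genes (2.80%) were lower and 43 (0.853%) higher in libraries labelled cKO, against 2% lower and 0.744% higher over all 19622 genes tested. The share of lower genes was 1.61% among 7472 genes with no region, 2.25% with 1, 3.15% with 2 to 4, 2.92% with 5 to 9 and 3.54% with 10 or more. The share of higher genes was 0.522%, 0.41%, 1.02%, 1.33% and 1.36% in the same order, so it too was larger at genes with more regions. Median expression climbed with the number of regions, from 3.82 to 6.37 on the log2 CPM scale. Its part in these shares was not tested. By gene body rather than nearest start, a link chosen after seeing the data, 111 of 4853 genes (2.29%) were lower and 40 (0.824%) higher. These shares lie closer to those over all genes than the shares by nearest start. Without the library labelled cKO 1, 75 genes (1.48%) were lower and 6 (0.118%) higher, against 0.932% and 0.105% over all genes. Without cKO 2 the counts were 80 (1.57%) and 16 (0.314%), against 1.03% and 0.26%. Without Control 2 or Control 3 the higher genes numbered 16 (0.314%) and 10 (0.197%), against 0.214% and 0.175%.

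Among genes nearest to a region, the largest fall was that of Npr1. Npr1, the receptor guanylyl cyclase for natriuretic peptides, was at 6.42, 4.93 and 4.73 CPM in Control and 0.807, 0.662 and 0.736 CPM in libraries labelled cKO (log2 fold change -2.87, SE 0.17, adjusted p = 4.83e-05). Its 2 regions, 13.3 and 14.7 kb from the start, kept H3K27ac in all libraries: the nearer had 791, 703 and 736 bp in Control and 311, 759, 352 and 487 bp in those labelled cKO. Lrrc10b, a leucine-rich repeat gene, fell from 23.5, 20.2 and 16.8 CPM to 3.66, 3.20 and 3.55 CPM (log2 fold change -2.55). Its region 4.75 kb away had H3K27ac of 1084, 481 and 265 bp in Control and 0, 638, 191 and 0 bp, which overlap. Capn3, a calcium-dependent protease gene, fell from 18.3, 14.8 and 15.955 CPM to 3.81, 3.40 and 3.71 CPM (log2 fold change -2.18), and its single region had H3K27ac of 760, 482 and 192 bp and 0, 207, 308 and 0 bp.

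Sstr4, a somatostatin receptor gene, showed the other combination. Its RNA fell from 76.5, 62.3 and 51.3 CPM to 15.8, 15.2 and 17.9 CPM (log2 fold change -1.97, SE 0.14, adjusted p = 0.000129). All 8 of its regions kept H3K27ac in each library labelled cKO, and the summed mean length was 6749 bp in Control and 8741 bp in libraries labelled cKO. The spread of this sum over libraries is not given. At the longest region, 45.2 kb from the start, H3K27ac covered 892, 1856 and 1543 bp in Control and 1760, 1978, 1802 and 1882 bp, which overlap. Over the 8 regions the summed H3K9ac was 725 and 1318 bp, and neither of the 2 that could be tested passed. Serpina3n, a serine protease inhibitor gene, fell from 42.7 ± 2.95 CPM in Control to 12.01 ± 0.734 CPM in libraries labelled cKO (SD, n = 3 each; edgeR adjusted p = 2.96e-05). Its 4 regions summed to 1700 and 1594 bp of H3K27ac. Npsr1, Slitrk6, Gm34583, 9430053O09Rik and 6330420H09Rik complete the 10 largest falls among genes nearest to a region that met the conditions above. Their log2 fold changes were -2.46, -1.81, -2.07, -2.37 and -2.12. The single region assigned to Slitrk6, 49.4 kb away, had H3K27ac of 231, 501 and 461 bp in Control and 0 bp in all 4 libraries labelled cKO.

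Higher genes named under the same conditions changed less. Wdr17, a WD-repeat gene, rose from 68.8, 76.7 and 77.8 CPM to 162, 146 and 136 CPM (log2 fold change 0.98, SE 0.10, adjusted p = 0.000832). Its larger region, 40.9 kb from the start, had H3K9ac of 545, 825 and 368 bp in libraries labelled cKO and 0, 0, 0 and 219 bp in Control, which did not pass the test (adjusted p = 0.117). C1qtnf6, a secreted C1q and TNF related protein gene, rose from 2.38, 2.09 and 1.88 CPM to 4.77, 3.94 and 4.97 CPM. The remaining 8 named, Gm29681, Gpr55, Gm15834, 9530062K07Rik, Vrk2, Dus4l, Myo3b and Spats1, rose by 0.68 to 1.10 on the log2 scale. Of these, 9530062K07Rik, Gm15834, Gpr55, Myo3b, Spats1 and Vrk2 lost their call without the library labelled cKO 1.

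**Figure D5:**
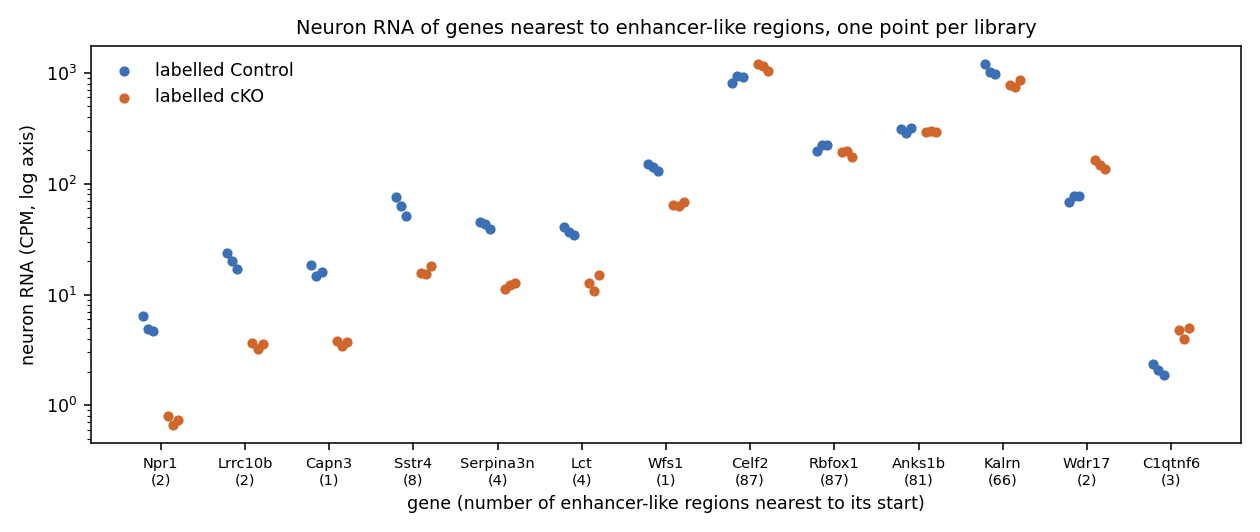
Neuron RNA in CPM on a log axis (y axis) of 13 genes (x axis, with the number of enhancer-like regions nearest to each) in the 3 libraries of each label (points). Npr1 to Wfs1 are lower in each library labelled cKO than in each Control library, Wdr17 and C1qtnf6 are higher, and Rbfox1, Anks1b, Celf2 and Kalrn, with 66 to 87 regions, did not pass the test.

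Among tested genes, the 4 with the most regions did not pass edgeR's test. Celf2 and Rbfox1, RNA-binding regulators of splicing, had 87 regions each, Anks1b, a postsynaptic protein gene, 81, and Kalrn, a guanine nucleotide exchange factor gene of dendritic spines, 66. At the Anks1b regions the summed H3K9ac was 11150 bp in Control and 22466 bp in libraries labelled cKO, and at the Celf2 regions 7481 and 17014 bp. At the Kalrn regions it was 10841 and 17573 bp, and at the Rbfox1 regions 5436 and 9000 bp. The mean per region over all enhancer-like regions was 128 and 170 bp. The spread of these sums over libraries is not given. Higher H3K9ac calls numbered 2 of 43 tested at Anks1b, 1 of 31 at Celf2, 0 of 37 at Kalrn and 0 of 23 at Rbfox1. Of all regions tested, 1.41% were called higher. Anks1b RNA was at 313, 289 and 317 CPM in Control and 294, 302 and 291 CPM (log2 fold change -0.07, adjusted p = 0.723). Celf2 RNA was at 808, 945 and 926 CPM and 1199, 1144 and 1051 CPM (log2 fold change 0.33, adjusted p = 0.168). Kalrn (-0.42, adjusted p = 0.0956) passed with DESeq2 (adjusted p = 0.00418) and without the filter on low counts (adjusted p = 0.0414). More regions were assigned to Gm46033, with 98 and no RNA identifier matched, and to AF366264, with 97, none of them within 50 kb of its start, which was at 0 CPM in 5 of 6 RNA libraries and not tested. Counted by gene body, the most were in Rbfox1 with 133, Dab1 with 118, Dlgap2 with 102, Csmd1 with 97 and Celf2 with 95.

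Genes of synaptic plasticity and neuronal activity were read from a list of 30. By gene body, 13 of the 27 present on the annotated autosomes held 265 regions, led by the NMDA receptor subunit genes Grin2b with 86 and Grin2a with 83 and the AMPA receptor subunit gene Gria1 with 48. Per 100 kb of gene, Nr4a3, an activity-induced nuclear receptor gene, had the most, with 24.2. The summed H3K27ac of the Grin2b regions was 56608 bp in Control and 65088 bp in libraries labelled cKO, and that of the Gria1 regions 36595 and 43134 bp. At Shank3, a postsynaptic scaffold gene, it was 5445 and 3320 bp over 7 regions, and at Per1, a clock gene induced by activity, 1884 and 1017 bp over 2. These are sums of label means, and their spread over libraries is not given. In RNA, 2 of the 30 passed, both lower, where 2% of all genes tested were lower. These were Nptx2, a neuronal pentraxin gene, and Ier2, an immediate early gene. Only 20 of the 30 list genes have an entry in the table of starts. Neither Nptx2 nor Ier2 has one, so no region could be assigned to them, and neither gene body held a region. The list's median log2 fold change was -0.23, against 0.02 over all genes tested. The libraries labelled cKO did not move together: the library labelled cKO 1 had the lowest level of all 6 libraries at 14 of the 30 genes, cKO 2 at 8 and cKO 3 at 2. Arc, an activity-induced gene of synapses, was at 94.9, 90.6 and 90.2 CPM in Control and 30.7, 49.0 and 91.8 CPM in those labelled cKO 1, 2 and 3, so the last lay at the Control level. Without the library labelled cKO 1 the list's median was -0.18 with 1 gene lower, and without cKO 3 it was -0.35 with 5 lower.

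At Bdnf, whose sequences are shown above, the region over the start at chr2:109722451-109723900 had H3K9ac of 204, 350, 179 and 285 bp in Control and 304, 494 and 0 bp in libraries labelled cKO (adjusted p = 0.899). H3K27ac covered 857, 660 and 1083 bp and 1082, 580, 869 and 1103 bp, and H3K4me3 was absent from all 8 libraries. Bdnf RNA, counted over all its starts, was 28.6, 33.2 and 30.7 CPM in Control and 26.7, 31.3 and 23.5 CPM (adjusted p = 0.421). At Gm52296 H3K9ac covered 341, 296, 285 and 364 bp in Control and 775, 621 and 572 bp in libraries labelled cKO (log2 difference 0.84, SE 0.12, adjusted p = 0.0284 with the filter and 0.0482 without), a call in which every library had a peak. At F7, the region over the start, chr8:13025521-13026603, had H3K9ac of 599, 577 and 205 bp in libraries labelled cKO and 0, 0, 167 and 0 bp in Control, which do not overlap and did not pass the test (log2 difference 2.04, adjusted p = 0.143). F7 RNA was barely detected, at 0.182, 0.129 and 0.174 CPM in Control and 0.418, 0.378 and 0.413 CPM in libraries labelled cKO (log2 fold change 1.30, edgeR adjusted p = 0.0488). That call was lost with DESeq2 (adjusted p = 0.17) and without any one library (adjusted p = 0.0776 to 0.181).

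Several cell type markers with regions fell. Lct RNA fell from 40.9, 37.0 and 34.3 CPM to 12.7, 10.8 and 14.999 CPM (log2 fold change -1.56, SE 0.13, adjusted p = 0.000295). The region over its CpG-poor start, chr1:128326710-128328704, had H3K27ac of 961, 1707 and 1758 bp in Control and 1200, 1575, 1315 and 1311 bp in libraries labelled cKO, which overlap. Another of its 4 regions, 32.5 kb from the start, had 1351, 1225 and 851 bp and 899, 638, 526 and 678 bp, which also overlap. Wfs1, a CA1 marker encoding an endoplasmic reticulum protein, fell from 151, 141 and 129 CPM to 64.9, 63.2 and 67.9 CPM, and its one region, 2.52 kb from the start, had H3K27ac of 1420, 648 and 542 bp and 521, 201, 211 and 740 bp, again overlapping. Amigo2, a CA2 marker, and the dentate markers Dsp, C1ql2 and Tdo2 had log2 fold changes of -0.62, -0.78, -0.76 and -0.70, and the last 3 of these calls were lost without the library labelled cKO 1. Counting markers with and without a region, 4 of the 6 dentate granule, 2 of 6 CA1, 1 of 8 CA2 and CA3 and 2 of 10 excitatory markers fell. Of all genes tested, 2% were lower. The CA1 marker Spink8 and both excitatory markers, Neurod6 and Nrgn, had no region assigned and none in the gene body. Of 50 tested markers in the 5 lists for interneurons, astrocytes, oligodendrocytes, microglia and endothelial and mural cells, edgeR called 0, with 7 at an unadjusted p under 0.05, and DESeq2 called 1. In bulk RNA, fewer cells of a type and less RNA per cell cannot be told apart, and the part of cell composition in the H3K9ac and RNA values above was not tested.

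Of 186 tested genes nearest to the 392 higher regions, 8 (4.30%) were lower and 4 (2.15%) higher, where 2% and 0.744% of all genes tested were called, and their median log2 fold change was 0.01. The lower ones were Alox12b, Arpp21, Ccdc3, Chgb, Nsmce3, S100b, Thsd4 and Zbtb20, and the higher ones Anks4b, Dglucy, Gm29681 and Tox3. Of 38 genes nearest to the 59 lower regions, Mirt1 and Slc27a3 were lower. These genes were named after their values were seen.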

How the data were processed

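Peaks of 30 ChIP libraries and gene counts of 6 neuron RNA libraries were used. Peaks were called per library by the authors with MACS2, per the file headers, as broad peaks for H3K4me1 only and with 1 input library per genotype, so input and genotype cannot be told apart. The deposited peak lists give each peak's length in bp and its −log10 p and −log10 q value, as MACS wrote them. RNA values are the authors' deposited raw counts per gene, and their aligner and annotation are not given in the sources used here. The versions named in the headers are 2.1.0.20140616 and 2.1.1.20160309. Coordinates are those of the deposited lists, which fit mm10 (GRCm38). RefSeq starts and gene spans come from GRCm38.p6, without chromosome 18.

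Covered bp per region and library were computed from the peak lists, and a peak was present where at least 1 bp overlapped. A region without a peak is not shown to lack the mark. Covered lengths were tested with limma 3.58.1 on log2(bp + 100), and RNA with edgeR 4.0.16 (quasi-likelihood test), each over all features with Benjamini-Hochberg adjustment. DESeq2 1.42.0 was an alternative. Both fits were tested on simulated data. Named regions were those with the best H3K27ac ranks, the smallest H3K9ac p, lengths at the 2000 bp limit, or a mark in all or none of the libraries labelled cKO. Named genes were called genes nearest to a region with the largest changes, called list genes, and the 5 with most regions among those matched to an RNA identifier. Members and lists were chosen with earlier results of these data known. Whether replicate numbers pair the samples is not known: same-numbered RNA libraries correlated at -0.057, 0.286 and -0.004 after subtraction of group means. Differently numbered ones ran from -0.249 to 0.216, and 3 libraries per label cannot decide it. Whole-tissue RNA was not used.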

Additional observations from a re-analysis of the deposited data

Results flagged for a closer look

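Of 47 groups of 4 libraries at named regions, 5 had 1 library apart from the rest by Dixon's criterion. Chance flags about 1 in 20 groups of varying values, but 4 of the 5 hold 1 peak and 3 zeros, which this criterion always flags, so that rate does not apply to them. H3K4me3 was present in 1 of 4 libraries labelled cKO at 3 regions: 169 bp at chr1:164606171-164608297, 226 bp at the Rin2 region and 264 bp at the Notch1 region. H3K27ac covered 1002 bp in the library labelled cKO 1 at the Slit1 region, against 1328 to 1337 bp in the other three. H3K9ac covered 163 bp in 1 Control library at the Grin2a region and 0 bp in the other three.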

How the results depend on the processing

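The number of regions was 17109 when peaks within 1000 bp were merged and 116 when peaks needed a −log10 q of at least 5. The difference in the share of regions with a peak (libraries labelled cKO minus Control) was -10.9 percentage points for H3K27ac, and -1.39 at that q and -7.90 with equal numbers of peaks. For H3K4me1 it was -1.46, and reversed to 0.51 with at least 50% of the region covered and to 10.998 at that q. For H3K9ac it was 8.58, and 3.55 and 4.91 with 50% covered and equal numbers of peaks. For H3K4me3 it was 3.06, and 0.22 and 0.77 with 50% covered and at that q. Causes were not tested. H3K9ac calls, higher and lower, were 392 and 59 of 14851 tested, against 713 and 380 of all 50484 regions. At that q they were 210 and 16 of 3088, against 720 and 497 of 30590. With equal numbers of peaks they were 306 and 93 of 13607, against 576 and 463 of 48679. A peak in all 7 libraries gave 13 and 2 of 4235, against 102 and 211 of 32320. Regions chosen in both genotypes had 201 and 19 of 7928. Lane 6, with the filter at 2 libraries, gave 664 and 147 of 15838, against 1018 and 407 of 51916. Leaving out 1 library gave 6 to 527 higher and 28 to 100 lower, against 18 to 998 and 132 to 372 over all regions. With the filter at 2 libraries it gave 592, 683 and 972 higher and 106, 118 and 79 lower, with counts over all regions given above. RNA calls near regions, 141 lower and 43 higher, were 225 and 68 with DESeq2 and 74 and 23 within 10 kb; leaving out 1 library gave 75 to 137 lower and 6 to 38 higher. The Tmem266 region lost its call with equal numbers of peaks (adjusted p = 0.306).

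With the replicate number as a block, limma called 0 regions higher and 0 lower (1849 enhancer-like regions at an unadjusted p under 0.05). The same libraries, numbered 1, 2 and 4, without the block gave 484 higher and 80 lower of 13895, against 842 and 298 of all 49056. With the block, edgeR called 105 genes lower (2.08%) and 15 higher (0.298%), against 1.37% and 0.301% over all genes. Whether the numbers pair the samples is not known.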
